A study of Saccharomyces cerevisiae with 6 samples.

Results

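The 32 genes described here encode aminoacyl-tRNA synthetases of the yeast Saccharomyces cerevisiae. They were taken by name, and all 32 were found among the 6526 genes kept from the deposited table, each with a value in all 6 libraries. Of these, 19 serve the cytosol and 13 serve mitochondria. The table's own descriptions name a tRNA synthetase for 18 of the 19 cytosolic genes, all but GRS1, and for all 13 mitochondrial genes, which are also all described as mitochondrial. Mitochondria are also named for 6 cytosolic genes: ALA1, GRS1, HTS1 and VAS1 as enzymes of both compartments, FRS2 in a comparison with the mitochondrial enzyme, and YDR341C because its protein was detected in purified mitochondria. All strains fermented MS300, a synthetic grape must, in bioreactors, and cells were collected in exponential growth once 6 g/l of CO2 had been released. The groups were R008, a vineyard strain, with 25 mg/l SO2; EC1118, an enological strain, with 25 mg/l SO2; the enological strain AWRI796 with 25 mg/l SO2 and without SO2 (0 mg/l); and the enological strain VL3 with 25 mg/l SO2 and without SO2 (0 mg/l). SO2 is the common preservative of winemaking. Each group is 1 library, so no value within a group has a replicate, and R008 and EC1118 without SO2 were not analysed here. RNA was depleted of ribosomal RNA and sequenced on the SOLiD platform.

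Aminoacyl-tRNA synthetases join each amino acid to its own tRNA and so supply the ribosome with its substrates. Yeast translates its nuclear messages in the cytosol and a small set of mitochondrial messages inside mitochondria, and most amino acids have a separate nuclear gene for the enzyme of each compartment. ALA1, GRS1, HTS1 and VAS1 are exceptions, since each encodes the cytosolic and the mitochondrial form. Uncharged tRNA, which accumulates when amino acids are short, activates the kinase Gcn2, and this raises translation of Gcn4, the activator of amino acid synthesis genes.

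Levels are given as scaled RPKM, which are the deposited reads per kilobase of gene and per size of the library after division by 1 factor per library. They are corrected for gene length, but aligner and counting are unknown, so comparisons between genes remain uncertain. Changes are differences of log2(scaled RPKM + 1), or the fold that such a difference equals, and the added 1 makes low genes appear to change less. The number of reads behind a value is unknown, so neither counting intervals nor detection floors can be had. RPKM are shares of a library, so they do not show the amount of RNA per cell. The deposited values of a library summed to between 765526 and 1070980 RPKM, and the scaling factors ranged from 0.88 to 1.153.

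Cytosolic synthetases stood well above mitochondrial synthetases in every library. The median cytosolic level was 187 in R008, 228.5 in EC1118, 271 in AWRI796 with SO2, 163 in AWRI796 without SO2, 256 in VL3 with SO2 and 212 in VL3 without SO2. For mitochondrial enzymes the medians were 68.3 in R008, 48.4 in EC1118, 48.8 in AWRI796 with SO2, 51.3 in AWRI796 without SO2, 67.1 in VL3 with SO2 and 54.3 in VL3 without SO2. Over the 5009 genes with a mean RPKM of at least 5 and a value in every library, the median lay between 48.2 and 49.9. The mitochondrial enzymes stood near this median in EC1118 and AWRI796 and somewhat above it in R008 and in VL3 with SO2. Low genes are left out of it. Among the 6036 genes with a value in all libraries, the middle mitochondrial member by mean level, NAM2, stood above 63.1%. Summed over genes, cytosolic transcripts outweighed mitochondrial ones 6.03-fold in R008, 7.54-fold in EC1118, 10.02-fold in AWRI796 with SO2, 6.24-fold in AWRI796 without SO2, 7.81-fold in VL3 with SO2 and 8.47-fold in VL3 without SO2.

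Among cytosolic enzymes the highest mean level belonged to THS1, the threonyl-tRNA synthetase gene, at 577 in R008, 645 in EC1118, 1041 in AWRI796 with SO2, 437 in AWRI796 without SO2, 813.5 in VL3 with SO2 and 1027 in VL3 without SO2. SES1, for serine, ran from 577 in R008 to 1094 in AWRI796 with SO2. ILS1, for isoleucine, ran from 400 in AWRI796 without SO2 to 898 in VL3 without SO2. The ranges of these 3 genes overlapped, so their order was not the same in every library. By mean level THS1 stood above 97% of the 6036 genes with a value in all libraries, SES1 above 96.9% and ILS1 above 96.7%.

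At the other end was FRS2, which encodes the alpha subunit of cytosolic phenylalanyl-tRNA synthetase. It stood at 5.15 in R008, 13.6 in EC1118, 7.13 in AWRI796 with SO2, 4.33 in AWRI796 without SO2, 9.08 in VL3 with SO2 and 7.58 in VL3 without SO2. FRS1, which encodes the beta subunit of the same enzyme, stood at 145, 158, 192, 83, 180 and 166 in the same order of libraries. The RPKM of the beta subunit gene was therefore between 11.6-fold and 28.2-fold above that of the alpha subunit gene in the 6 libraries. The table alone does not show why FRS2 is so low, since aligner and counting are unknown, and the same doubt holds for ratios that use FRS2. FRS2 had no match among other coding sequences of R64 in the search for copies. TYS1, for tyrosine, was the next lowest cytosolic gene, at 29.4 in R008, 51 in EC1118, 36.6 in AWRI796 with SO2, 21.7 in AWRI796 without SO2, 28.8 in VL3 with SO2 and 16.8 in VL3 without SO2.

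Among mitochondrial enzymes MSY1, for tyrosine, had the highest mean, with a level of 118 in R008, 103 in EC1118, 112.5 in AWRI796 with SO2, 80.9 in AWRI796 without SO2, 133 in VL3 with SO2 and 109 in VL3 without SO2. SLM5, for asparagine, was the lowest, at 6.21 in R008, 8.81 in EC1118, 6.76 in AWRI796 with SO2, 5.08 in AWRI796 without SO2, 7.35 in VL3 with SO2 and 5.3 in VL3 without SO2. MSW1, for tryptophan, and MSM1, for methionine, varied least over the libraries, with a highest level 1.27-fold and 1.28-fold above the lowest. The widest spread of a mitochondrial gene was 2.09-fold, in MSD1, for aspartate, and that of a cytosolic gene was 3.14-fold, in FRS2.

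**Figure D1:**
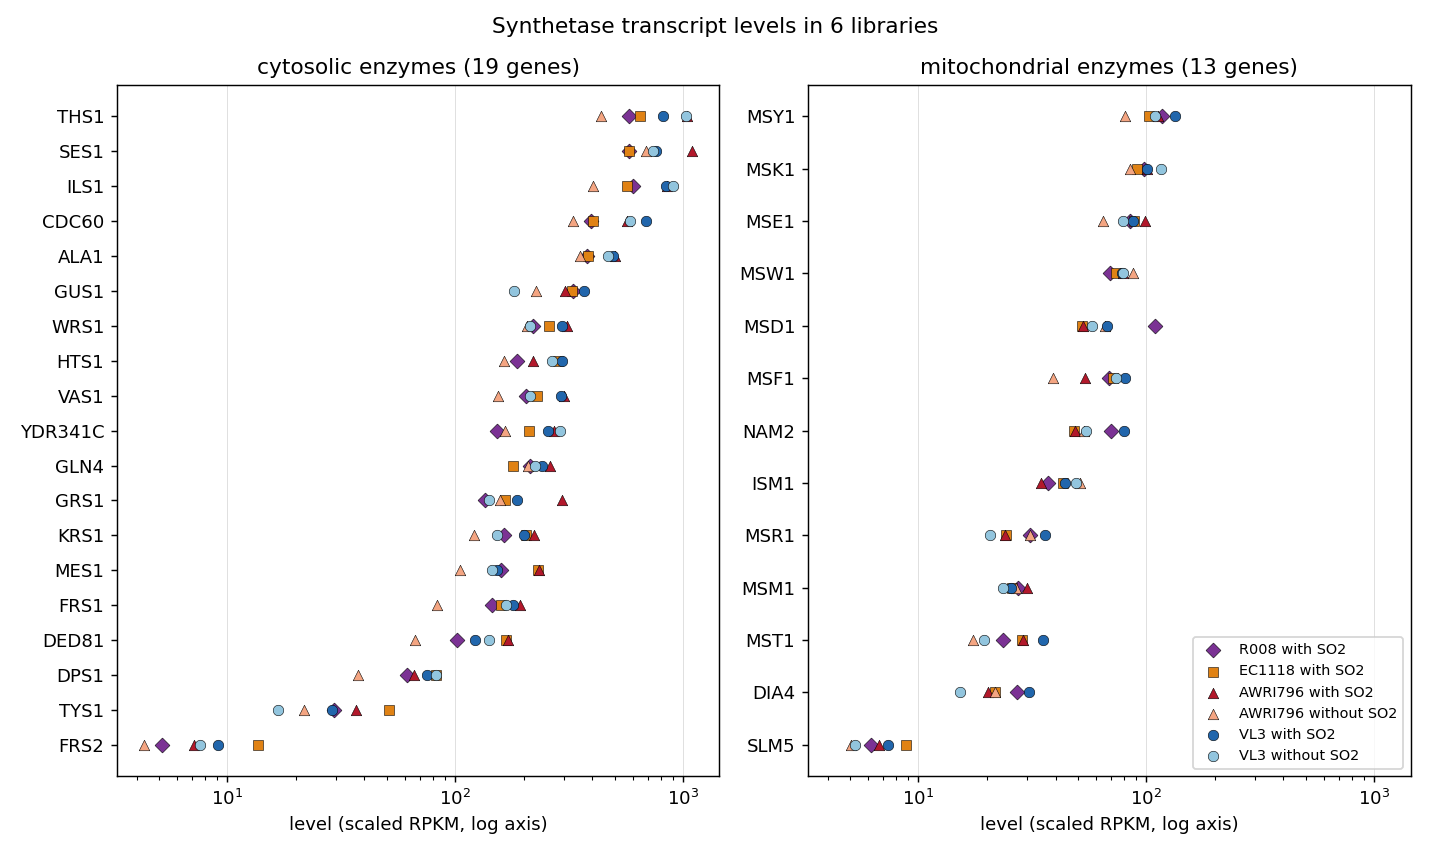
Level of each synthetase gene in scaled RPKM on a log axis, cytosolic genes on the left and mitochondrial genes on the right, ordered by mean level, with 1 point per library. THS1 reached 1041 in AWRI796 with SO2, FRS2 stayed between 4.33 and 13.6, and AWRI796 without SO2 was the lowest library for 13 of 19 cytosolic genes.

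For 13 amino acids the list holds a gene for each compartment, which allows the cytosolic and the mitochondrial enzyme to be set against each other. Serine had the largest mean ratio, with SES1 over DIA4 at 21.3 in R008, 26.8 in EC1118, 54 in AWRI796 with SO2, 31.6 in AWRI796 without SO2, 24.8 in VL3 with SO2 and 48.6 in VL3 without SO2. Threonine followed, with THS1 over MST1 between 22.7 in EC1118 and 52.8 in VL3 without SO2, and then asparagine and isoleucine. For lysine the ratio of KRS1 to MSK1 was between 1.3 and 2.25.

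The tyrosine pair was turned round. TYS1 over MSY1 was 0.25 in R008, 0.494 in EC1118, 0.325 in AWRI796 with SO2, 0.269 in AWRI796 without SO2, 0.216 in VL3 with SO2 and 0.154 in VL3 without SO2, so that the mitochondrial gene was the higher in all 6 libraries. FRS2 was also below its mitochondrial counterpart MSF1 in all 6, at ratios from 0.0754 to 0.19, while FRS1 over MSF1 was between 2.12 and 3.56. For aspartate, DPS1 over MSD1 was below 1 in R008 (0.566) and in AWRI796 without SO2 (0.57), and the other 4 libraries had ratios from 1.12 to 1.58. Taking the mean of the log2 values of FRS1 and FRS2 for phenylalanine, the median ratio over the 13 amino acids was 4.82 in R008, 8.13 in EC1118, 7.55 in AWRI796 with SO2, 3.81 in AWRI796 without SO2, 5.78 in VL3 with SO2 and 5.95 in VL3 without SO2.

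**Figure D2:**
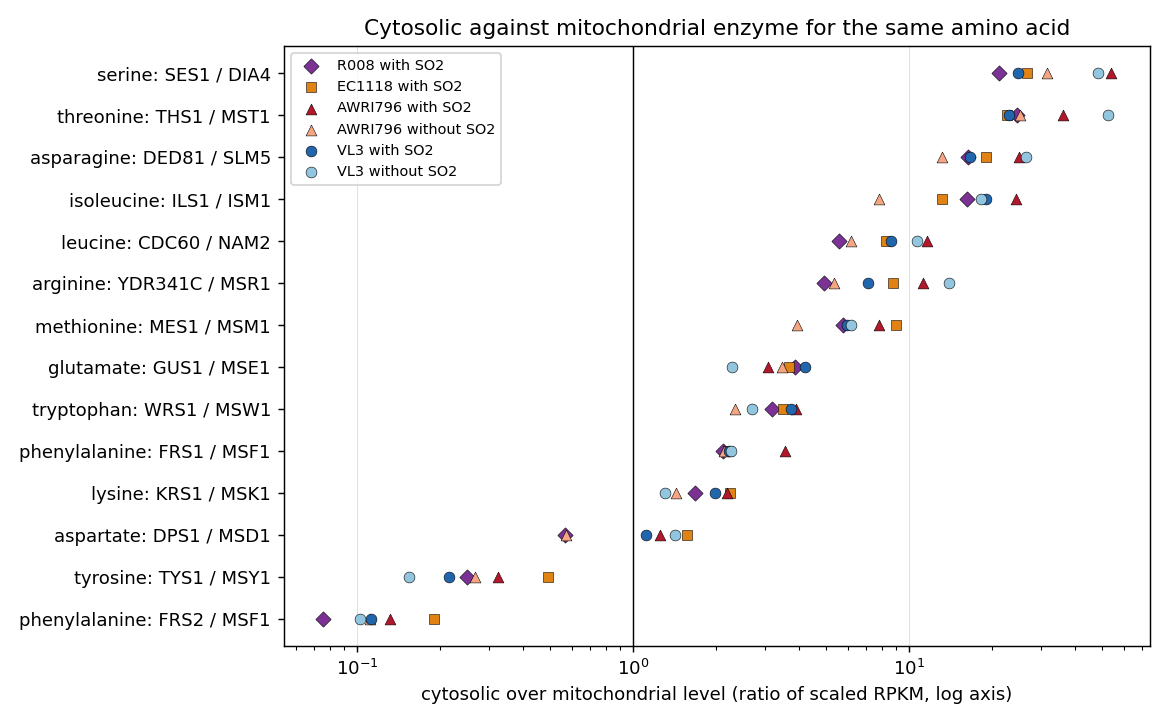
Ratio of cytosolic to mitochondrial level for each amino acid with a gene for each compartment, on a log axis with 1 point per library. Serine and threonine lie above 20 in every library, tyrosine lies between 0.154 and 0.494, and FRS2 over MSF1 lies between 0.0754 and 0.19.

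SO2 in AWRI796 went with higher levels of the cytosolic enzymes. DED81, for asparagine, stood at 170 in AWRI796 with SO2, against 66.8 in AWRI796 without SO2, a 2.52-fold difference and the largest of the 32. THS1 was 2.38-fold higher, at 1041 with SO2 against 437 without. FRS1 was 2.3-fold higher, at 192 with SO2 against 83 without. MES1, for methionine, was 2.22-fold higher, at 234 with SO2 against 105 without. ILS1 was 2.11-fold higher, at 847 with SO2 against 400 without.

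In all, 15 of 19 cytosolic members were at least 1.5-fold higher in AWRI796 with SO2, where 17.6% of the 5158 genes compared were, and 5 of 19 at least 2-fold, where 7.79% were. All 19 lay above 0, as did 49.8% of all genes. None was at least 1.5-fold lower, where 15.4% of all genes were. The cytosolic median log2 change was 0.78, with a range of 0.31 to 1.33, and that of all genes was 0. The 4 below 1.5-fold were ALA1 at 1.42-fold, GUS1, for glutamate, at 1.35-fold, HTS1, for histidine, at 1.34-fold and GLN4, for glutamine, at 1.24-fold. The smallest fold among the 15 was that of WRS1, for tryptophan, at 1.51-fold. With quantile normalization, 11 of the 19 were past 1.5-fold, where 16.1% of all genes were. These differences within a strain have no replicate check, and no test was made.

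The other cytosolic members past 1.5-fold can be followed over all libraries. CDC60, the leucyl-tRNA synthetase gene, stood at 394 in R008, 400.3 in EC1118, 568 in AWRI796 with SO2, 329 in AWRI796 without SO2, 687 in VL3 with SO2 and 582.1 in VL3 without SO2. VAS1, for valine, stood at 204 in R008, 228 in EC1118, 299 in AWRI796 with SO2, 153 in AWRI796 without SO2, 291 in VL3 with SO2 and 212 in VL3 without SO2. GRS1, for glycine, stood at 134 in R008, 165 in EC1118, 295 in AWRI796 with SO2, 158 in AWRI796 without SO2, 187 in VL3 with SO2 and 141 in VL3 without SO2. AWRI796 without SO2 was the lowest library for CDC60 and VAS1, whereas GRS1 was lower still in R008 and in VL3 without SO2. KRS1, for lysine, stood at 163 in R008, 205 in EC1118, 221 in AWRI796 with SO2, 121 in AWRI796 without SO2, 199.8 in VL3 with SO2 and 152 in VL3 without SO2. WRS1, for tryptophan, stood at 220.4 in R008, 258 in EC1118, 311 in AWRI796 with SO2, 206 in AWRI796 without SO2, 294 in VL3 with SO2 and 213 in VL3 without SO2. Both were lowest in AWRI796 without SO2 and highest in AWRI796 with SO2. YDR341C, for arginine, stood at 153 in R008, 211 in EC1118, 271 in AWRI796 with SO2, 165 in AWRI796 without SO2, 256 in VL3 with SO2 and 288 in VL3 without SO2, so it was highest in VL3 without SO2 and lowest in R008. DPS1, for aspartate, stood at 61.6 in R008, 82.2 in EC1118, 66.1 in AWRI796 with SO2, 37.6 in AWRI796 without SO2, 75.1 in VL3 with SO2 and 82.2 in VL3 without SO2. SES1 stood at 577 in R008, 581 in EC1118, 1094 in AWRI796 with SO2, 685 in AWRI796 without SO2, 761 in VL3 with SO2 and 738 in VL3 without SO2, where the lowest library was R008. DED81 stood at 102 in R008, 168 in EC1118, 169.7 in AWRI796 with SO2, 66.8 in AWRI796 without SO2, 122 in VL3 with SO2 and 140.5 in VL3 without SO2, and MES1 at 159 in R008, 231 in EC1118, 234 in AWRI796 with SO2, 105 in AWRI796 without SO2, 153 in VL3 with SO2 and 145 in VL3 without SO2. In EC1118 both were close to their level in AWRI796 with SO2. ILS1 stood at 599.7 in R008, 569 in EC1118, 847 in AWRI796 with SO2, 400.4 in AWRI796 without SO2, 839 in VL3 with SO2 and 898 in VL3 without SO2. The ILS1 level in AWRI796 without SO2 was thus below the other 5, which lay at 569 or above.

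The enzymes that serve both compartments were also higher with SO2. ALA1, GRS1, HTS1 and VAS1 had a median log2 change of 0.7 in AWRI796, against 0.78 for the 15 others, YDR341C among them. GRS1 was 1.87-fold higher and VAS1 1.94-fold higher. The class I enzymes, which share a Rossmann fold in the catalytic domain, had a median of 0.73 over 9 genes, and the class II enzymes one of 0.83 over 10 genes. Neither difference was tested, since genes are not replicates.

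In AWRI796 the median change with SO2 was smaller for the mitochondrial enzymes. Their median log2 change was 0.16, with a range of -0.56 to 0.69. Their median level was 48.8 with SO2 against 51.3 without, so the medians of levels and of changes differ in sign. Only MST1, for threonine, at 28.7 with SO2 against 17.35 without (1.62-fold), and MSE1, for glutamate, at 99 with SO2 against 64.8 without (1.52-fold), reached 1.5-fold, so 2 of 13 against the 17.6% of all genes. ISM1, for isoleucine, had the lowest change and stood at 34.6 with SO2 against 51.3 without. MSR1, for arginine, stood at 24 with SO2 against 30.8 without, and MSD1 at 52.9 with SO2 against 65.9 without. None passed 1.5-fold on the lower side, though ISM1 did without the scaling factors. Paired by amino acid, the cytosolic to mitochondrial ratio was higher with SO2 for 12 of 13 amino acids in AWRI796, by a median of 0.77 on the log2 scale. Glutamate was the exception at -0.17, and the largest shift was that of isoleucine at 1.64.

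In VL3 the cytosolic enzymes differed little between cultures. Their median log2 change was 0.11, with 14 above 0 and 5 below, against 49% of all 5150 genes above 0. Only 2 of 19 were at least 1.5-fold higher, where 10.7% of all genes were, and none was at least 1.5-fold lower, where 9.86% were. GUS1 stood at 329 in R008, 325 in EC1118, 304 in AWRI796 with SO2, 226 in AWRI796 without SO2, 365 in VL3 with SO2 and 182 in VL3 without SO2. Its difference in VL3 was 2.01-fold, the single one of the 19 past 2-fold, where 3.09% of all genes were. TYS1 stood at 28.7 with SO2 against 16.8 without (1.68-fold). THS1 had the lowest change, at 813.5 with SO2 against 1027 without.

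Mitochondrial enzymes in VL3 had a median log2 change of 0.21, and 3 of 13 were at least 1.5-fold higher, against 10.7% of all genes. DIA4, for serine, stood at 30.7 with SO2 against 15.2 without (1.96-fold). MST1 stood at 35.2 with SO2 against 19.5 without (1.77-fold), and MSR1 at 35.9 with SO2 against 20.6 without (1.71-fold). Over all libraries DIA4 stood at 27.1 in R008, 21.7 in EC1118, 20.2 in AWRI796 with SO2, 21.7 in AWRI796 without SO2, 30.7 in VL3 with SO2 and 15.2 in VL3 without SO2. MST1 stood at 23.5 in R008, 28.4 in EC1118, 28.7 in AWRI796 with SO2, 17.4 in AWRI796 without SO2, 35.2 in VL3 with SO2 and 19.5 in VL3 without SO2. MSR1 stood at 30.9 in R008, 24.1 in EC1118, 24 in AWRI796 with SO2, 30.8 in AWRI796 without SO2, 35.9 in VL3 with SO2 and 20.6 in VL3 without SO2, and MSE1 at 84.9 in R008, 88.3 in EC1118, 99 in AWRI796 with SO2, 64.8 in AWRI796 without SO2, 87.2 in VL3 with SO2 and 79.2 in VL3 without SO2. DIA4, MST1 and MSR1 were highest in VL3 with SO2 and MSE1 in AWRI796 with SO2. NAM2, the leucyl-tRNA synthetase that also takes part in splicing of mitochondrial introns, followed at 79.9 with SO2 against 54.3 without. Paired by amino acid, the cytosolic to mitochondrial ratio was higher with SO2 for 6 of 13 amino acids, with a median change of -0.04 on the log2 scale. Without the scaling factors the median gene in VL3 shifted by 0.17 on the log2 scale, and 4 cytosolic and 4 mitochondrial members were then past 1.5-fold, where 18.1% of all genes were.

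**Figure D3:**
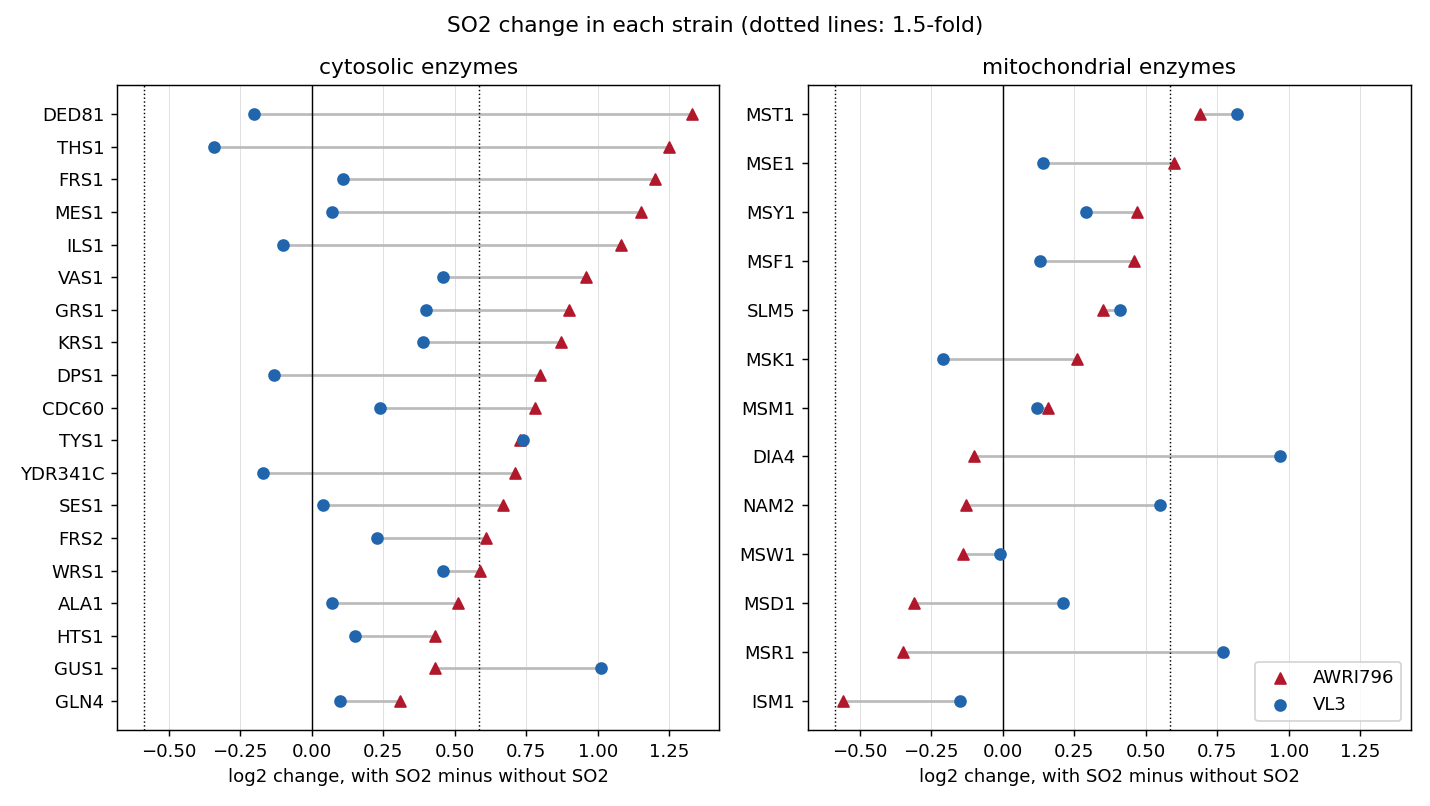
Log2 change with SO2 minus without SO2 for each member in AWRI796 (triangles) and VL3 (circles), with dotted lines at 1.5-fold. In AWRI796 all 19 cytosolic genes lie above 0, from 0.31 to 1.33, whereas in VL3 they run from -0.34 to 1.01, and the mitochondrial genes lie on both sides of 0 in both strains.

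Over both strains 2 of 32 members, TYS1 and MST1, were at least 1.5-fold higher with SO2 in each, where 2.85% of 5092 genes were. Averaged over the strains, MST1 was 0.76 ± 0.29 higher on the log2 scale (SE, adjusted p = 0.64 by limma), and TYS1 0.74 ± 0.29 higher (SE, adjusted p = 0.64 by limma). All 19 cytosolic members had a mean change above 0, where 49.9% of all genes did. Of them 5, DED81, THS1, ILS1, YDR341C and DPS1, had a change above 0 in AWRI796 and below 0 in VL3, a share close to the 23.4% of all genes. The sign in VL3 depended on the scaling factors for most of these genes. Without the factors, the VL3 change was 0.08 for ILS1, 0.04 for DPS1, 0 for YDR341C, -0.03 for DED81 and -0.16 for THS1. Changes of opposite sign in the strains were found for 10 of all 32 members, where 46% of genes had them. No member passed an adjusted p of 0.05 by limma, and no gene of the whole table did (0% of 5092). At an unadjusted p under 0.05 there were 1 cytosolic and 1 mitochondrial member, TYS1 and MST1, where 7.36% of all genes were. This fit has 4 libraries and 1 residual degree of freedom, and the SEs of members, 0.29 to 0.49, are largely pooled over genes. Whether the strains differed in their SO2 change was not tested, since that difference leaves no residual degree of freedom.

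Ribosomal protein transcripts differed in the same direction as the cytosolic enzymes. Cytosolic ribosomal protein genes had a median log2 level of 8.96 in AWRI796 with SO2, against 7.35 in AWRI796 without SO2, and of 8.09 in VL3 with SO2 against 7.58 in VL3 without SO2. Cytosolic synthetases stood at 8.09 in AWRI796 with SO2, against 7.36 without, and at 8 in VL3 with SO2 against 7.73 without. Taken gene by gene, the synthetases had a median log2 change of 0.78 in AWRI796 and 0.11 in VL3, where 5 of 19 were lower. The ribosomal protein genes had medians of 1.67 in AWRI796 and 0.34 in VL3. AWRI796 without SO2 was the lowest of the 6 libraries for 13 of 19 cytosolic synthetases, where it was for 20.8% of all genes, and AWRI796 with SO2 was the highest for 11 of 19, where it was for 18.1%. Stationary phase markers had a median log2 level of 5.71 in AWRI796 with SO2, against 5.94 in AWRI796 without SO2, and of 5.74 in VL3 with SO2 against 4.91 in VL3 without SO2. Gene by gene, their median log2 change was -0.1 in AWRI796 and -0.09 in VL3, so the medians of levels and of changes differ in sign in VL3. Past 1.5-fold were 3 of 11 upward and 4 downward in AWRI796, where 17.6% and 15.4% of all genes were, and 3 upward and 2 downward in VL3, where 10.7% and 9.86% were. The extremes in AWRI796 were GRE1, at 241 with SO2 against 60.2 without, and HSP26, at 996 with SO2 against 6372 without. In VL3 GRE1 stood at 139 with SO2 against 29 without, and HSP26 at 1952 with SO2 against 1645 without. The part of both lists in the synthetase changes was not tested.

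**Figure D4:**
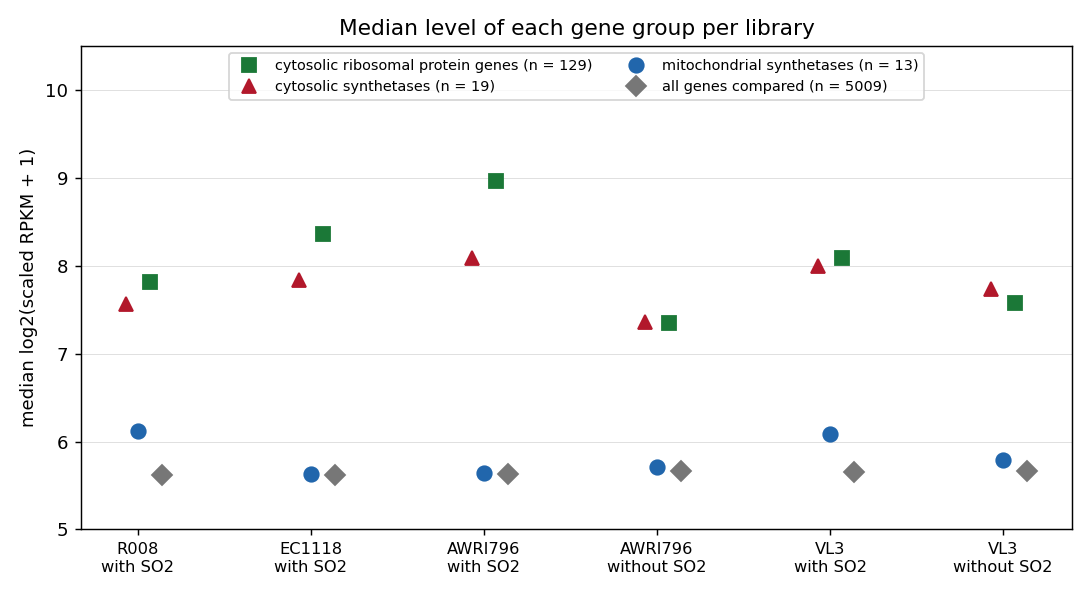
Median log2(scaled RPKM + 1) of cytosolic ribosomal protein genes (squares), cytosolic synthetases (triangles), mitochondrial synthetases (circles) and all genes compared (diamonds) in each library. The cytosolic synthetases range from 7.36 in AWRI796 without SO2 to 8.09 in AWRI796 with SO2, and the mitochondrial synthetases stay between 5.63 and 6.12.

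Promoter sequences of 3 amino acid pairs are printed, those of isoleucine, aspartate and arginine, whose cytosolic to mitochondrial ratios shifted most with SO2 in AWRI796 (by 1.64, 1.11 and 1.06 on the log2 scale). YDR341C and MSR1 were 66.8% identical over 77.7% of YDR341C, the match that covered most of any member's coding sequence, so no member had a near-identical copy. Each window holds the 250 bases before the start codon and the first 50 coding bases, 300 in all, read 5′ to 3′ on the gene's strand from the RefSeq R64 genome. Capitals mark TGACTC on either strand, the core of the site bound by Gcn4, and AAAATTTT, the core of an element common before ribosome biogenesis genes, which reads the same on both strands. In these windows the marked motifs share no bases.

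ILS1 (chr2:84212-84511, reverse strand): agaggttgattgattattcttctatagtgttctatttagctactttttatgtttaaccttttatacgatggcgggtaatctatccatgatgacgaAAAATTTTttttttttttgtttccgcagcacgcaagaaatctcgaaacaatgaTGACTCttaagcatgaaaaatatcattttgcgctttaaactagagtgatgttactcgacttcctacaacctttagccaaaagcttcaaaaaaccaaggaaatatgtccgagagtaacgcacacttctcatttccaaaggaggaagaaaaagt

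ISM1 (chr16:478952-479251, reverse strand): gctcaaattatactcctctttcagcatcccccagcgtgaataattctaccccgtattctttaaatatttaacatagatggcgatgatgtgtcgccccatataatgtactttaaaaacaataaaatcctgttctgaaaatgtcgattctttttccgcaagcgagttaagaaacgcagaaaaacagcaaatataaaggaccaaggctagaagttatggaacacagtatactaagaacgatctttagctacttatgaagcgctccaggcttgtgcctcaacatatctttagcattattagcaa

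DPS1 (chr12:111526-111825, reverse strand): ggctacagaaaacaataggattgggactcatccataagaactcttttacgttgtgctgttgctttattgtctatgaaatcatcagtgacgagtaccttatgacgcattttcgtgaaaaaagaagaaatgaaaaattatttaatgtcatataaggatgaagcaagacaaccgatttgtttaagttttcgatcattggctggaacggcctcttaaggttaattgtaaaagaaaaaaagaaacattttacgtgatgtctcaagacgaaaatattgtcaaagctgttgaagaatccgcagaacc

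MSD1 (chr16:355450-355749, forward strand): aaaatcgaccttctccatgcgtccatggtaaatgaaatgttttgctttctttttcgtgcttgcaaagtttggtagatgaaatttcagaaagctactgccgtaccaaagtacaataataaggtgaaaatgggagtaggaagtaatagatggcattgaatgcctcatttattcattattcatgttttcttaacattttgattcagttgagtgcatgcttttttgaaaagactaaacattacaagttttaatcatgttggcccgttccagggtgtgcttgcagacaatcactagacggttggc

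YDR341C (chr4:1153577-1153876, reverse strand): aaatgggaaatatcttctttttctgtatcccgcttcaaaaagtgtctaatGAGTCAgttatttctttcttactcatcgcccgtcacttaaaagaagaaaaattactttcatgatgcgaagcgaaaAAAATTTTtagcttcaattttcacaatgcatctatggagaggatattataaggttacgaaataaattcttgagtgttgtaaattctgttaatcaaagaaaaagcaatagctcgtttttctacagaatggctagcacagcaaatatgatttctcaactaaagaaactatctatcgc

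MSR1 (chr8:286721-287020, reverse strand): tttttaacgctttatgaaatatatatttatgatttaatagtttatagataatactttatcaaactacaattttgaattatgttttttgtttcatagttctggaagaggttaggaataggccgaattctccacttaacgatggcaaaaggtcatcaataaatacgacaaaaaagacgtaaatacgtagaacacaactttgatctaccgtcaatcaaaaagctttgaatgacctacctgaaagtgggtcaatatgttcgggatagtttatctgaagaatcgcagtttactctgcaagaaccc

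ILS1 carried TGACTC with its first base at position -102 and AAAATTTT at -155, counted back from the start codon. YDR341C carried them at -200, on the opposite strand, and at -125. Neither run of letters is in the windows of DPS1, ISM1, MSD1 or MSR1. Over all members, TGACTC was in 7 of 19 cytosolic windows (36.8%) and in 0 of 13 mitochondrial windows, against 8% of the 6001 windows of protein-coding genes. The match in GLN4 began at coding base 20, so it lay after the start codon and not upstream of it. AAAATTTT was in 11 of 19 cytosolic windows (57.9%) and in 0 of 13 mitochondrial windows, against 9%. GATGAG on either strand, the core of a further element of ribosome biogenesis genes, was in 31.6% of cytosolic and 7.7% of mitochondrial windows, against 20.4%. In THS1 and WRS1 this match began at position -1 and so ran over the start codon itself.

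Of the cytosolic genes, 4 held both TGACTC and AAAATTTT, namely ILS1, THS1, VAS1 and YDR341C, and 5 held neither, namely CDC60, DPS1, GUS1, HTS1 and MES1. In AWRI796 the 11 genes with AAAATTTT had a median log2 change of 0.9 (0.59 to 1.33), and the 8 without it 0.65 (0.31 to 1.15). The 7 with TGACTC had a median of 0.87 (0.31 to 1.25), and the 12 without it 0.76 (0.43 to 1.33). These ranges overlap. A run of letters in a window is not a binding site, and binding was not measured.

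R008 had lower cytosolic synthetase levels than the enological strains with SO2. All 19 cytosolic genes had a negative log2 difference between R008 and the mean of EC1118, AWRI796 and VL3, where 48.4% of 5009 genes did, with a median of -0.38. R008 was below all 3 enological libraries for 14 of 19, where it was for 21.2% of all genes, and above all 3 for none. YDR341C, for arginine, stood at 153 in R008, against 211 in EC1118, 271 in AWRI796 and 256 in VL3, a log2 difference of -0.68 ± 0.38 (SE, limma adjusted p = 1). FRS2 had a log2 difference of -0.79 ± 0.51 (limma adjusted p = 1). GRS1 stood at 134.5 in R008, against 165 in EC1118, 295 in AWRI796 and 187 in VL3. GUS1 differed least, at 329 in R008, 325 in EC1118, 304 in AWRI796 and 365 in VL3.

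The mitochondrial enzymes had a median log2 difference of 0.01 with 5 of 13 genes below 0. MSD1 stood apart, at 109 in R008, against 52.1 in EC1118, 52.9 in AWRI796 and 67.1 in VL3, a log2 difference of 0.92 ± 0.34 (SE). Its unadjusted p was 0.0221 and its adjusted p was 1 by limma. It was the single mitochondrial member that was above all 3 enological libraries, where 20.1% of all genes were. R008 was below all 3 for 4 of 13 mitochondrial genes, where it was for 21.2% of all genes. No member passed limma's threshold in this comparison, where 0.18% of 5009 genes did, and 1 of 32 had an unadjusted p under 0.05, where 3.15% of genes did. The fit has 2 residual degrees of freedom and takes the single R008 library to vary like the others. Ribosomal protein genes were also lower in R008, at a median log2 difference of -0.64 over 129 genes, and their part in the synthetase difference was not tested. Without the scaling factors the median of all genes shifted by -0.23, and the cytosolic median became -0.61.

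**Figure D5:**
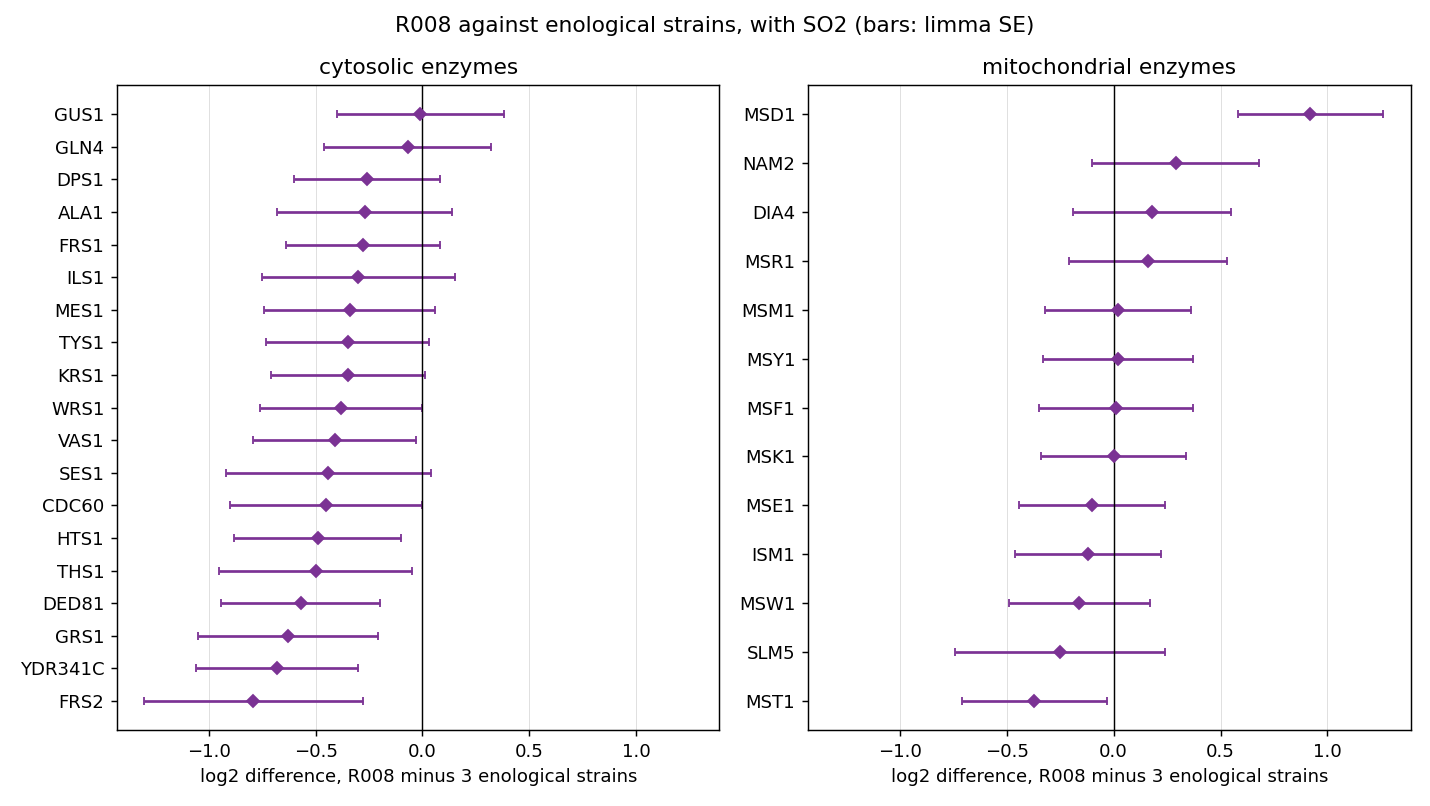
Log2 difference of R008 minus the mean of the 3 enological strains, all with SO2, for each member, with bars for the limma SE. All 19 cytosolic genes lie below 0, from -0.79 to -0.01, while the mitochondrial genes lie on both sides, with MSD1 at 0.92.

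The strain comparison averages over SO2, and the strains differed in opposite directions at its levels. The summed cytosolic level was 6935 in AWRI796 and 6288 in VL3 with SO2, and 3922 in AWRI796 and 5947 in VL3 without SO2. Over both, the cytosolic median log2 difference was -0.21, with 12 of 19 genes below 0, where 50.6% of all genes were, and without the scaling factors the median was 0.04. The mitochondrial median was -0.08. This comparison comes from the fit over VL3 and AWRI796, with 1 residual degree of freedom. Its p-values rest on how the strain difference varies between the SO2 levels, so cultures with and without SO2 stand in for replicates. No member passed limma's threshold, where 0.334% of 5092 genes did. The lowest unadjusted p belonged to MSF1, for phenylalanine, which stood at 54 and 38.9 in AWRI796 with and without SO2, against 80.4 and 73.5 in VL3 with and without SO2, a log2 difference of -0.73 ± 0.29 (SE). By limma its unadjusted p was 0.0367 and its adjusted p was 0.38. MSF1 was the single member with an unadjusted p under 0.05, where 12% of genes were.

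The remaining synthetase genes and their partners went both ways in AWRI796. YHR020W, described as similar to proline-tRNA ligase, stood at 168 in AWRI796 with SO2, against 76.2 without, and at 124 in VL3 with SO2 against 166 without. YNL247W, the cysteinyl-tRNA synthetase gene, stood at 51.6 in AWRI796 with SO2, against 27.3 without. GRS2, a relative of GRS1, stood at 42.2 in AWRI796 with SO2, against 58.9 without, while GRS1 was higher with SO2. ARC1, whose product binds the methionyl and glutamyl enzymes, stood at 174 in VL3 with SO2, against 104 in VL3 without SO2 (1.66-fold), and at 160 in AWRI796 with SO2 against 125.5 without. In both strains its fold was nearer to that of GUS1 (2.01-fold in VL3, 1.35-fold in AWRI796) than to that of MES1 (1.05-fold in VL3, 2.22-fold in AWRI796). YGR102C, PET112 and HER2 encode the complex that makes glutaminyl-tRNA in mitochondria by amidation. YGR102C stood at 12.3 in AWRI796 with SO2, against 43.9 without, PET112 at 43 with SO2 against 49 without, and HER2 at 24 with SO2 against 27 without. Past 1.5-fold, 2 of these 7 genes were higher and 1 lower in AWRI796, and 1 was higher and none lower in VL3. The shares of all genes were 17.6% higher and 15.4% lower in AWRI796 and 10.7% higher and 9.86% lower in VL3.

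GCN4 stood at 783 in R008, 1346 in EC1118, 1207 in AWRI796 with SO2, 394 in AWRI796 without SO2, 395 in VL3 with SO2 and 418 in VL3 without SO2. Its transcript was therefore high in AWRI796 with SO2 and in EC1118, intermediate in R008, and alike in both VL3 cultures. Gcn4 is regulated mainly in translation, which was not measured here. GCN2, the kinase gene, stood at 48 in AWRI796 with SO2, against 58.2 without, and at 56.9 in VL3 with SO2 against 82 without. The median log2 changes of the 5 genes of that pathway were 0.28 in AWRI796 and -0.08 in VL3.

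Genes of other steps of the tRNA cycle were nearer to 0 than the cytosolic synthetases in AWRI796, apart from elongation factors. The 11 genes of tRNA processing and export had a median log2 change of 0.15 in AWRI796 and 0 in VL3. Of them 2 in AWRI796 and 1 in VL3 were at least 1.5-fold higher, near the shares of all genes, 17.6% and 10.7%. Of 28 tRNA modification genes 27 were compared, with medians of 0.43 in AWRI796 and 0.1 in VL3. In AWRI796, 6 of them passed 1.5-fold upward, led by the methyltransferase gene TRM11 at 2.3-fold, and 1 downward, MOD5, which modifies adenosine beside the anticodon, at 2.3-fold lower. In VL3, 2 passed upward and 2 downward, with MOD5 at 2.11-fold lower. These counts are near the shares of all genes, which were 17.6% upward and 15.4% downward in AWRI796 and 10.7% upward and 9.86% downward in VL3, except that fewer were lower in AWRI796. Cytosolic elongation factors had a median of 0.92 over 8 genes in AWRI796 and of 0 over 7 genes in VL3; TEF1 and TEF2, and EFT1 and EFT2, are nearly identical gene pairs and their values are uncertain. YEF3, elongation factor 3, stood at 2232 in AWRI796 with SO2, against 1106 without, and at 2176 in VL3 with SO2 against 1682 without. The 4 mitochondrial translation factors had medians of 0.48 in AWRI796 and -0.12 in VL3.

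Coordinates of all 32 members in the deposited table equalled those of R64. THS1 lies on chromosome 9 from 212499 to 214703, DED81 on chromosome 8 from 141894 to 143558, FRS1 on chromosome 12 from 260979 to 262766 and FRS2 on chromosome 6 from 93499 to 95010. GUS1 lies on chromosome 7 from 39023 to 41149 and MSD1 on chromosome 16 from 355700 to 357676. Every member has 1 coding exon. Another row of the table overlaps 5 of the 19 cytosolic members, and whether counting used strand is not given in the sources used here. Of these rows, YBR121C-A, described as a dubious open reading frame within GRS1, stood between 53.2 and 120, so GRS1 is uncertain, while the frames that overlap ALA1, ILS1, MES1 and GLN4 stood between 0 and 0.824 where they had a value. Without these 5 genes, 12 of the remaining 14 cytosolic genes were at least 1.5-fold higher in AWRI796 with SO2. The share of all genes was 17.6%.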

How the data were processed

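RNA sequencing of 6 yeast cultures, 1 per strain and SO2 level, was deposited as 1 table with 6611 rows. The authors gave RPKM values (read number corrected for gene length and library size), per the file headers. Libraries came from total RNA cleared of rRNA and were run on a SOLiD 4 instrument, per the labels' protocols. Which aligner, counter, build and strand setting made them was not given in the sources used here. Start and end equalled those of R64 for 5849 of 5856 genes found in both. Depth is unknown.

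Rows with an identifier of the Saccharomyces Genome Database were used (6534), including 2 read from the end of another line and leaving out 8 that share a systematic name. RPKM were divided by a median-of-ratios factor per library, from 4993 genes. Genes with a mean RPKM of at least 5 were kept, which all 32 members passed, and changes were taken on log2(scaled RPKM + 1). Within a strain there is no test. Over VL3 and AWRI796, and for R008 against 3 enological strains, limma 3.58.1 in R 4.3.3 (lmFit, eBayes with trend) was fitted across all genes with Benjamini-Hochberg adjustment at 0.05, with strain as a block in the first. Strains are not replicates of each other. Over VL3 and AWRI796, p-values rest on how far the SO2 changes of the strains differ. In the R008 fit they rest on the spread between the enological strains. Coding sequences of R64 were searched for similar copies by BLAST+ 2.17.0. RPP1, of RNase P, was left out of the ribosomal protein genes. Values in every library are given for members past 1.5-fold in a strain or with a limma call, and for the extremes of level and of ratio. Other members and all list genes named with values, such as MSD1, MSF1, ISM1, GRE1, HSP26, GCN4 and ARC1, were chosen after their values were seen, as were the printed promoters. The members and lists were chosen with earlier results of these data known.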

Additional observations from a re-analysis of the deposited data

Results flagged for a closer look

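The SO2 change had opposite signs in AWRI796 and VL3 for 10 of the 32 members, where it had for 46% of 5092 genes, so opposite signs were no more frequent among members than elsewhere in the table. The difference between the strains was not tested, since each rests on 1 library per group. Higher with SO2 in AWRI796 and lower in VL3 were 5 cytosolic genes. Without the scaling factors the VL3 changes of ILS1 and DPS1 turned to 0.08 and 0.04. In that setting YDR341C stood at 0 and DED81 at -0.03. The change in AWRI796 minus that in VL3 was 1.58 on the log2 scale for THS1, 1.53 for DED81, 1.18 for ILS1, 0.93 for DPS1 and 0.88 for YDR341C. In MSK1, the mitochondrial lysyl-tRNA synthetase gene, it was 0.47. The other way round were 4 mitochondrial genes, with -1.12 for MSR1, -1.06 for DIA4, -0.68 for NAM2 and -0.52 for MSD1.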

How the results depend on the processing

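Each value was recomputed without the scaling factors, with quantile normalization, at pseudocounts of 0.1 and 5, and with no filter or a minimum mean RPKM of 20, which leaves 30 members. The cytosolic count past 1.5-fold in AWRI796 was 15 and ranged from 11 to 15. The share of all genes in these settings ranged from 14.8% to 18.2%. Without the factors, the VL3 medians were 0.28 (cytosolic) and 0.38 (mitochondrial). In VL3 4 cytosolic genes were then past 1.5-fold, where 18.1% of all genes were. AWRI796 had 1 mitochondrial gene past 1.5-fold, where 15.3% of all genes were, and 1 member lower. The R008 medians were -0.61 and -0.22, and the cytosolic median of AWRI796 against VL3 turned to 0.04. The common shift of all genes in that setting accounts for these by construction. At a pseudocount of 5 AWRI796 also had 1 mitochondrial gene past 1.5-fold, where 14.8% of all genes were. At the minimum of 20, which drops a mitochondrial gene, the AWRI796 mitochondrial median was 0.03. The log2 gap between the compartments' medians was 1.44 in R008, 2.22 in EC1118, 2.45 in AWRI796 with SO2, 1.65 in AWRI796 without SO2, 1.91 in VL3 with SO2 and 1.94 in VL3 without SO2. It was 2.34 in AWRI796 with SO2 by quantile normalization. Over the 13 amino acid pairs it was 2.27, 3.02, 2.92, 1.93, 2.53 and 2.57 in the same order of libraries. Without the 4 genes that serve both compartments it was 1.24 in R008, 2.1 in EC1118 and 1.72 in VL3 without SO2. Leaving out each enological library in turn, the cytosolic median for R008 stayed between -0.45 and -0.33, with 18 or 19 genes lower. With every library kept, 48.4% of all genes were lower in R008. Leaving out the 5 cytosolic genes with an overlapping row was chosen after seeing the data. Each group is 1 library, so no replicates could be paired. The limma fit over VL3 and AWRI796 compares SO2 within strain. RPKM hold no counts, so what depth allows for low genes such as FRS2 and SLM5 is unknown.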
